A study of Homo sapiens with 4 samples.

Results

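Collagens are the main structural proteins of the extracellular matrix. The 44 genes described here are those whose symbol in the deposited tables is COL, a number, A and a number, out of 39323 genes in each table, and each of them codes for 1 chain of a collagen. They were followed in RD and JR1, 2 established lines of fusion-negative rhabdomyosarcoma (FN-RMS), a childhood tumor of the skeletal muscle lineage. Cells of each line had been infected with a pLKO.1 lentivirus that carried either a hairpin against SKP2 (shSKP2.2) or a non-targeting scrambled hairpin (shSCR) and had been selected with puromycin, so both conditions carried a vector, with 1 hairpin each. SKP2 is the substrate-binding subunit of a ubiquitin ligase. There was 1 poly-A selected RNA-seq library for each line and condition, 4 in all, and no library of uninfected cells was analysed here.

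Collagen chains wind together into a triple helix, which is possible because glycine recurs along each chain at a fixed spacing. Fibrillar collagens (types I, II, III, V, XI, XXIV and XXVII) build the cross-banded fibers of connective tissue, and type IV collagen builds the sheet of basement membranes. Type VI collagen forms beaded filaments that anchor muscle basement membrane to the surrounding matrix, and fibril-associated collagens decorate the surface of fibers. In skeletal muscle most interstitial collagen is made by fibroblasts, and muscle precursors also transcribe several collagen genes.

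Levels are given as TPM, transcript levels that are corrected for transcript length and add up to 1000000 in each library. Read counts cannot be had from TPM, and sequencing depth is therefore unknown. Each group is 1 library, so the spread between replicates is not known within a line, and no test was run. For a change, 1 was added to both TPM values of a line and the shSKP2.2 value was divided by the shSCR value and put on a log2 scale, which understates the change of genes with low levels. The 12985 genes whose 4 libraries averaged 1 TPM or more were compared. Here "fell" and "rose" mean a change of at least 1 on this scale, that is at least 2-fold. SKP2 itself went in RD from 92.8 to 7.40 TPM and in JR1 from 46.5 to 2.72 TPM. Short structural RNAs took between 58.6% and 72.1% of the TPM, more with shSKP2.2 than with shSCR in each line, and the median change of all compared genes was -0.27 in RD and -0.21 in JR1. Collagen changes are therefore also given after these RNA genes were removed and the remaining TPM rescaled, which put the median of all genes at 0.12 in RD and 0.01 in JR1. Of 12 markers of the muscle lineage, 10 reached a mean of 1 TPM, among them MYOD1 at 87.0 to 131 TPM, whereas MYF5 was listed at 0 in every library. Markers of endothelium were below 1 TPM throughout. Of 4 epithelial markers 2 reached a mean of 1 TPM, among them KRT18 at 80.8 to 202 TPM. So did 2 of 5 smooth muscle, 1 of 3 leukocyte and 1 of 4 chondrocyte markers. Of 12 fibroblast markers 6 reached a mean of 1 TPM, FAP was listed at 0 in every library, and DCN and PDGFRA had at most 0.06 TPM.

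Collagen genes were a mixture of highly and barely transcribed members. Of the 44, 24 had at least 1 TPM in RD shSCR and 25 in JR1 shSCR, and 15 and 21 had at least 10 TPM. COL3A1, the only chain of the homotrimeric type III collagen, was by far the highest. After removal of the short structural RNA genes it ranked 29 among all genes in RD shSCR and 24 in JR1 shSCR. In RD the 44 genes summed to 2142 TPM with shSCR and 1842 TPM with shSKP2.2, and in JR1 to 2347 and 1098 TPM. The sum with shSKP2.2 was thus 86.0% of the shSCR level in RD as deposited but 115% once the short structural RNA genes were taken out, and in JR1 it was 46.8% and 56.2%. In RD COL3A1 alone made up 49.9% of this sum with shSCR and 75.1% with shSKP2.2, against 38.5% and 46.4% in JR1. Without COL3A1 the sum went to 42.8% of the shSCR level in RD and to 40.8% in JR1 (57.3% and 49.0% after the removal), so the lines were close in this respect once COL3A1 was set aside.

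**Figure D1:**
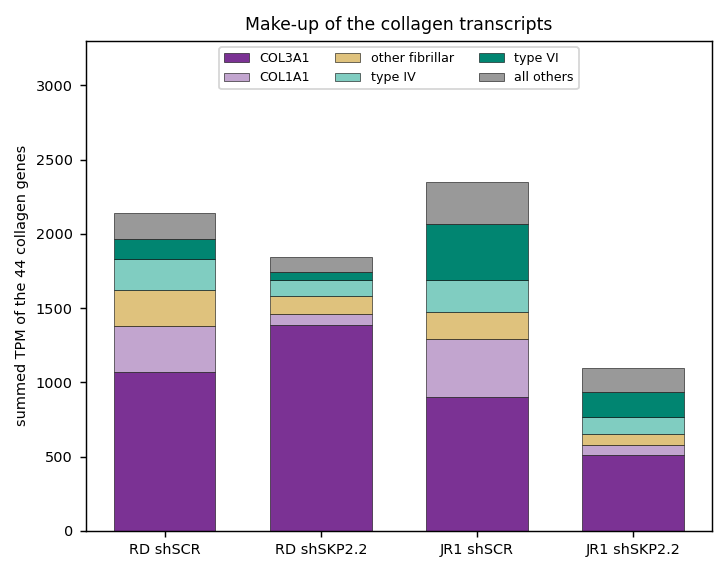
Summed TPM of the 44 collagen genes in each of the 4 libraries (1 bar per library, from 0), split into COL3A1, COL1A1, the other fibrillar genes, type IV, type VI and all others. In RD the COL3A1 segment is 1069 TPM high with shSCR and 1383 TPM with shSKP2.2, and the remaining segments are smaller with shSKP2.2 in both lines.

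**Figure D2:**
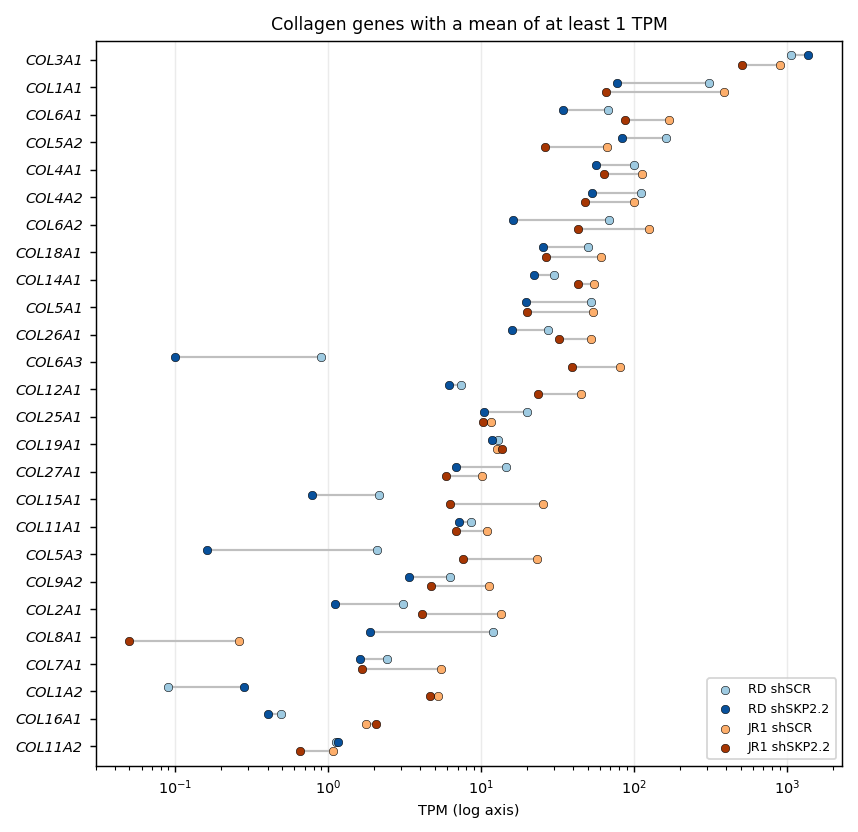
TPM (log axis) of the 26 compared collagen genes, 1 point per library, with a line joining shSCR and shSKP2.2 of the same line. Most shSKP2.2 points lie to the left of their shSCR point, COL3A1 in RD lies to the right, and COL6A3, COL15A1, COL5A3 and COL1A2 are lower in both RD libraries than in both JR1 libraries.

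SKP2 depletion went with lower levels of many collagen genes in both lines. Among the 26 compared collagen genes 6 fell in RD, where 7.37% of all compared genes fell, and 12 fell in JR1, where 9.05% did. None of the 26 rose in either line, against 1.08% of all compared genes in RD and 1.78% in JR1. The genes that fell in RD were COL1A1, COL4A2, COL5A1, COL5A3, COL6A2 and COL8A1, and all but COL8A1 also fell in JR1. These 5 genes fell in both lines, as did 4.79% of all compared genes. JR1 added COL2A1, COL5A2, COL6A3, COL7A1, COL9A2, COL15A1 and COL18A1. The 26 genes had medians of -0.81 (RD) and -0.93 (JR1), against -0.27 and -0.21 for all genes. Of the 26, 21 had lower values with shSKP2.2 by any amount in both lines, where 61.1% of all compared genes had. The remaining 5 (COL1A2, COL3A1, COL11A2, COL16A1 and COL19A1) had opposite signs in the lines. The limit passed through a dense part of the values: in RD COL4A2 stood just inside at -1.05 and COL27A1 just outside at -0.98, with 8 genes between -1 and -0.8. In JR1 COL6A3 stood just inside at -1.04 and COL6A1 just outside at -0.94. In bulk RNA, fewer cells that transcribe a gene and less RNA per cell cannot be told apart.

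**Figure D3:**
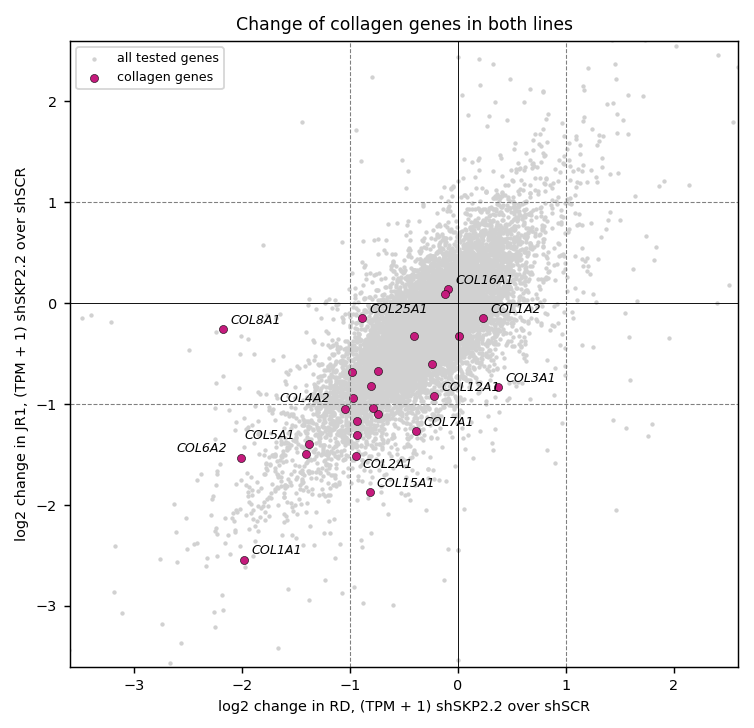
Change in RD (horizontal) against change in JR1 (vertical), both on the log2 scale with 1 TPM added, for all 12985 compared genes (gray) and the 26 collagen genes (colored), with dashed lines at the 2-fold limits. The axes are cut, and genes beyond them are not drawn. Collagen genes lie mostly in the lower left, COL1A1 lowest at -1.98 and -2.54, with COL3A1 to the right of 0 in RD and COL8A1 far to the left in RD and near 0 in JR1, where it had at most 0.26 TPM.

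The scale of the TPM decided several of these calls. Without the short structural RNA genes, 6 of 29 collagen genes then compared (COL1A1, COL5A3, COL6A2, COL6A3, COL8A1 and COL9A3) fell in RD and 8 (COL1A1, COL2A1, COL5A1, COL5A2, COL5A3, COL6A2, COL7A1 and COL15A1) in JR1, where 3.45% and 7.48% of all 15198 genes did. 1 collagen gene, the transmembrane collagen gene COL13A1 (0.11 to 0.58 TPM as deposited), rose in JR1 and none did in RD, against 4.9% and 4.4% of all genes. COL1A1, COL5A3 and COL6A2 fell in both lines on this scale too, as did 2.45% of all genes. COL6A3 (-1.26) and COL9A3 (-1.37) were counted as falls in RD on this scale only. Their levels there were low, 0.90 and 0.10 TPM for COL6A3 and 2.66 and 0.58 TPM for COL9A3 as deposited. Rescaling raised the TPM of the kept genes, so the added 1 TPM weighed less at low levels. COL4A2 no longer fell in either line, nor did COL5A1 in RD (-0.99), nor COL6A3, COL9A2 and COL18A1 in JR1. The median of the collagen genes was -0.51 in RD and -0.68 in JR1 after the removal, and 21 and 23 of the 29 were below 0.

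**Figure D4:**
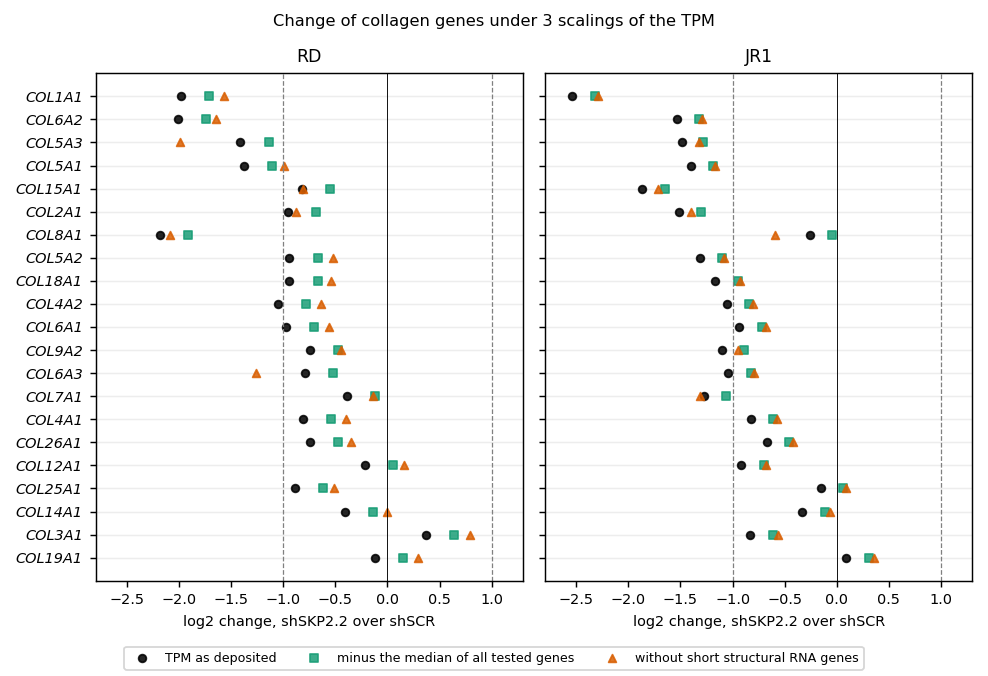
Change of the collagen genes that fell in either line or had a mean of at least 10 TPM, in RD (left) and JR1 (right), with the TPM as deposited (circles), minus the median of all compared genes (squares) and after removal of short structural RNA genes (triangles). COL1A1 and COL6A2 stay beyond the dashed 2-fold limit in both lines on all 3 scales, and COL3A1 stays above 0 in RD and below 0 in JR1.

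The fibrillar genes included the collagen gene with the largest change in JR1, COL1A1, and the gene whose lines diverged most clearly in sign, COL3A1. COL1A1 (chr17:50184096-50201649, GRCh38), which codes for the α1 chain of type I collagen, fell in RD from 307 to 77.0 TPM and in JR1 from 387 to 65.8 TPM. This left 25.1% of the shSCR level in RD and 17.0% in JR1, log2 changes of -1.98 and -2.54 (-1.57 and -2.29 without the short structural RNA genes). Its partner COL1A2, the α2 chain, was close to absent in RD at 0.09 and 0.28 TPM and low in JR1 at 5.24 and 4.63 TPM. The level of COL1A1 was 73.8 times that of COL1A2 in JR1 with shSCR and 14.2 times with shSKP2.2. COL3A1 (chr2:188974373-189012746) had 1069 and 1383 TPM in RD (0.37) but 904 and 509 TPM in JR1 (-0.83), with shSCR named first, and the signs were the same without the short structural RNA genes (0.79 and -0.56). Among collagen genes with at least 10 TPM in an RD library, it was the only one whose TPM as deposited was higher in RD with shSKP2.2, and without the short structural RNA genes COL19A1 was also above 0 (0.29). The ratio of COL3A1 to COL1A1 within a library, which does not depend on the scale of the TPM, went from 3.48 to 18 in RD and from 2.34 to 7.74 in JR1.

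COL5A2 lies 19151 bases from COL3A1 on chromosome 2, with no other gene of the tables between them, and codes for the α2 chain of type V collagen, which sits in the core of type I fibers. COL5A2 went from 162 to 83.8 TPM in RD (-0.94), and in JR1 it fell from 66.2 to 26.0 TPM (-1.31). The neighbors thus went in opposite directions in RD. COL5A1 (chr9), its partner chain α1, fell in RD from 52.3 to 19.5 TPM and in JR1 from 54.02 to 19.8 TPM, changes of -1.38 and -1.40. The ratio of COL5A1 to COL5A2 was 0.324 and 0.233 in RD and 0.816 and 0.763 in JR1, so COL5A2 was the more abundant of the partners in every library. The third type V chain, COL5A3, fell in RD from 2.09 to 0.16 TPM and in JR1 from 23.1 to 7.56 TPM, changes of -1.41 and -1.49.

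The other fibrillar genes were less abundant. COL2A1, whose product is the main collagen of cartilage, went from 3.09 to 1.11 TPM in RD (-0.95), and in JR1 it fell from 13.5 to 4.07 TPM (-1.51). COL11A1, a partner of type II collagen in thin fibers, had 8.63 and 7.18 TPM in RD and 10.9 and 6.89 TPM in JR1, short of the limit in both. COL27A1 was at 14.4 and 6.80 TPM in RD and at 10.1 and 5.92 TPM in JR1, and its change in RD was -0.98. COL11A2 stayed between 0.65 and 1.15 TPM. Of the 10 fibrillar genes compared, 3 fell in RD and 5 in JR1, beside the 7.37% and 9.05% of all compared genes.

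The exons of the collagen genes followed the repeat of the helix to differing degrees. The Gly-X-Y repeat is coded by 9 bases. In the canonical transcripts of GENCODE release 44, between 75.4% (COL5A3) and 90% (COL1A2) of the inner coding exons of the 11 fibrillar genes had a length that is a multiple of 9, and each gene had 21 (COL1A1) to 33 (COL24A1 and COL27A1) exons of exactly 54 bases. In the other classes the share ran from 20.6% (COL12A1) to 80.8% (COL23A1), so the ranges overlapped, and exons of 54 bases numbered up to 28 (COL22A1). COL4A1 had 2 such exons among 50. COL8A1, with 4 exons, had no inner coding exon at all.

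In the basement membrane class 1 of the 3 gene pairs was transcribed. COL4A1 and COL4A2 code for the chains of the ubiquitous type IV collagen, and lie head to head on chromosome 13 (chr13:110148963-110307157 and chr13:110307284-110513209). COL4A1 went in RD from 99.4 to 56.3 TPM and in JR1 from 113 to 63.5 TPM, changes of -0.81 and -0.82. COL4A2 fell in RD from 111 to 53.0 TPM and in JR1 from 99.9 to 47.7 TPM, a change of -1.05 in each. As deposited each gene therefore changed by nearly the same amount in the 2 lines. The pair summed to 52.0% of its shSCR level in RD and to 52.2% in JR1. Without the short structural RNA genes these sums were 69.6% and 62.7%. On that scale the changes in RD and JR1 were -0.40 and -0.57 for COL4A1 and -0.64 and -0.80 for COL4A2. The ratio of COL4A1 to COL4A2 was 0.895 and 1.06 in RD and 1.13 and 1.33 in JR1, the larger value with shSKP2.2 in both lines. COL4A3, COL4A4, COL4A5 and COL4A6, whose chains are more restricted to specialized membranes such as that of the kidney glomerulus, had at most 0.22 TPM.

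The start sites of COL4A1 and COL4A2 are separated by 126 bases, at chr13:110307158-110307283 of GRCh38.p14, which are shown because this stretch is all that lies between 2 genes that moved together. The plus strand from RefSeq reads toward COL4A2, and capitals mark CCAAT and GGGCGG (searched on both strands, as were CAGCTG and TATAAA, which were not found here).
COL4A1 to COL4A2: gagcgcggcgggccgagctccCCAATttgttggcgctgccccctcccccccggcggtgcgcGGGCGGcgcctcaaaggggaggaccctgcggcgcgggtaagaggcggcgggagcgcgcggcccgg
The stretch was 80.2% G and C, and it held CCAAT once and GGGCGG once. In RefSeq the start sites of COL4A4 and COL4A3 were 418 bases apart on chromosome 2, and those of COL4A6 and COL4A5 were 379 bases apart on chromosome X. Head-to-head order was thus shared by the transcribed pair and by both pairs with hardly any transcript.

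Type VI collagen is assembled from 3 different chains, and its genes set the lines apart. COL6A1 (chr21:45981770-46005048) went from 67.9 to 34.2 TPM in RD (-0.97), while JR1 had 169 and 87.5 TPM (-0.94). COL6A2, which lies 93022 bases away on the same chromosome, fell in RD from 68.5 to 16.2 TPM and in JR1 from 126 to 42.9 TPM, changes of -2.01 and -1.53. COL6A1 and COL6A2 were nearly equal in RD shSCR, with a ratio of 0.992, and the ratio was 2.11 in RD shSKP2.2. In JR1 it was 1.34 in shSCR and 2.04 in shSKP2.2. COL6A3, which codes for the third and longest chain, had 0.90 and 0.10 TPM in RD against 81.0 and 39.0 TPM in JR1, where it fell by 1.04 on the log2 scale. In RD 2 of the chains were thus well transcribed without the third, and in JR1 COL6A3 stood at 0.480 and 0.446 of COL6A1. COL6A5 and COL6A6 had at most 0.04 TPM.

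The 100 bases before the RefSeq start sites of COL6A2, COL5A1 and COL5A3, which fell in both lines, are printed 5′ to 3′ on the strand of each gene. They come from RefSeq (GRCh38.p14), whose start sites lie a little inside the gene spans of the deposited tables, and are at chr21:46098012-46098111 (plus strand), chr9:134641703-134641802 (plus strand) and chr19:10010505-10010604 (minus strand). Capitals mark GGGCGG, the binding word of SP1, TATAAA, the TATA box, and CAGCTG, a word bound by myogenic factors.
COL6A2: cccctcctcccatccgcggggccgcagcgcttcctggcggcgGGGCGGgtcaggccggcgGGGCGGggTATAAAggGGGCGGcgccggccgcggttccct
COL5A1: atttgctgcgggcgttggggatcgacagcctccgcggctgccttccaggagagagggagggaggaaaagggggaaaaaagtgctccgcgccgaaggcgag
COL5A3: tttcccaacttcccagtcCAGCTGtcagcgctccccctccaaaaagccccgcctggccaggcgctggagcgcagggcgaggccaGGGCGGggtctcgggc
The COL6A2 stretch held GGGCGG 3 times and TATAAA once, the COL5A3 stretch held CAGCTG once and GGGCGG once, and none of the 4 words was found in the stretch of COL5A1. Over the 250 bases before the RefSeq start, which for some genes is not the outermost start of the deposited gene span, GGGCGG was present in 13 of the 18 compared collagen genes with an entry, against 42.3% of 27305 promoters. CCAAT was present in 4 of the 18 against 33.0%, CAGCTG in 3 against 13.8% and TATAAA in 2 against 11.1%. The median share of G and C was 69.4% in these 18 and 58.0% in all promoters. An entry was found for 32 of the 44 collagen genes, and the compared genes with none were COL1A1, COL1A2, COL2A1, COL3A1, COL5A2, COL6A1, COL8A1 and COL14A1.

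Both multiplexin genes, which code for collagens of basement membrane zones with heparan or chondroitin sulfate chains, fell in JR1. COL18A1, the source of endostatin, went from 49.6 to 25.5 TPM in RD (-0.94), and in JR1 it fell from 61.0 to 26.6 TPM (-1.17). COL15A1 went from 2.14 to 0.78 TPM in RD (-0.82), and in JR1 it fell from 25.3 to 6.21 TPM (-1.87), which was the second largest fall of a collagen gene in that line.

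By their medians the fibril-associated collagens changed less than the fibrillar, type VI and multiplexin genes. As deposited their 5 compared genes had medians of -0.22 (RD) and -0.33 (JR1), close to those of all genes. Without the short structural RNA genes the medians of 6 genes were 0.04 and -0.37, against 0.12 and 0.01 for all genes. COL14A1 was at 29.8 and 22.2 TPM in RD and at 54.4 and 43.2 TPM in JR1. COL12A1, which bridges fibers in tendon and muscle, had 7.33 and 6.17 TPM in RD and 45.2 and 23.5 TPM in JR1, where its change was -0.92. COL19A1 was nearly level at 12.9 and 11.8 TPM in RD and 12.7 and 13.7 TPM in JR1. COL9A2, a cartilage chain, was at 6.29 and 3.36 TPM in RD and fell from 11.2 to 4.69 TPM in JR1 (-1.10). COL16A1 had 0.49 and 0.40 TPM in RD and 1.77 and 2.06 TPM in JR1.

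Among the remaining types, COL8A1, a short chain that forms a network under endothelia, fell from 12.0 to 1.86 TPM in RD, to 15.5% of the shSCR level. This change of -2.18 was the largest of any collagen gene in RD with 1 TPM added, whereas with 0.1 TPM added COL5A3 had -3.07 and COL8A1 -2.62. In JR1 the gene had 0.26 and 0.05 TPM, too little for a comparison of the lines. COL7A1, the chain of the anchoring fibrils of skin, was at 2.41 and 1.61 TPM in RD and fell from 5.46 to 1.67 TPM in JR1 (-1.27). COL25A1, a transmembrane collagen with a part in the innervation of muscle, went from 20.02 to 10.4 TPM in RD (-0.89) and was nearly level in JR1 at 11.6 and 10.3 TPM. COL26A1 was at 27.2 and 15.8 TPM in RD and at 52.2 and 32.4 TPM in JR1. The 18 genes that did not reach a mean of 1 TPM include COL9A3, which had the highest single value of them, 2.66 TPM in RD shSCR, and went to 0.58 TPM in RD shSKP2.2. Of these 18, 14 stayed below 0.3 TPM in every library. The changes of the 18 ranged from -1.21 to 0.51 and are not read further.

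The lines were also compared with each other, with positive values where RD was higher. These comparisons use the same libraries as those above. In shSCR 7 of the 26 collagen genes were at least 2-fold lower in RD, where 3.45% of all compared genes were, and 2 were at least 2-fold higher, where 6.5% were. The genes that were lower were COL6A3 (-5.43), COL15A1 (-3.07), COL5A3 (-2.96), COL1A2 (-2.52), COL12A1 (-2.47), COL2A1 (-1.82) and COL6A1 (-1.30). COL8A1 (3.36) and COL5A2 (1.27) were higher in RD. The count of genes lower in RD shSCR was 12 when the values were centred on the median of all genes and 13 of 29 without the short structural RNA genes (5.06% and 6.99% of all genes). With shSKP2.2 9 were lower in RD, where 2.7% of all genes were, and 3 were higher, where 5.39% were. The same 7 genes were among the 9, joined by COL6A2 (-1.35) and COL16A1 (-1.13), and COL3A1 (1.44) joined COL8A1 (1.45) and COL5A2 (1.65) on the other side. The median over all compared genes was 0.23 in shSCR and 0.17 in shSKP2.2.

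Collagen chains depend on enzymes that hydroxylate, fold, export, trim and cross-link them, and 101 genes of these steps and of collagen binding were listed from general knowledge. Of the 78 compared, 20 fell in RD and 21 in JR1, 13 of them in both, and none rose. Of all compared genes 7.37% fell in RD, 9.05% in JR1 and 4.79% in both, and 1.08% and 1.78% rose. Without the short structural RNA genes 9 of 83 fell in RD and 15 in JR1, 7 of them in both, where 3.45%, 7.48% and 2.45% of all genes did. On that scale 1 gene rose in RD, ADAMTS14 of propeptide processing (1.54), and none in JR1, where 4.4% and 4.9% of all genes did. As deposited ADAMTS14 had 0.99 in RD and -0.62 in JR1. As deposited the 78 genes had medians of -0.48 (RD) and -0.56 (JR1), against -0.27 and -0.21 for all genes. After the removal the medians were -0.08 and -0.36, against 0.12 and 0.01 for all genes. Among the genes of the list averaging at least 200 TPM, SERPINH1, P4HB, PPIB and HSP90B1 act inside the cell and stayed short of the limit. The matrix proteins SPARC and TNC, given below, also averaged at least 200 TPM. As deposited SPARC fell in both lines, and TNC stayed short of the limit. SERPINH1, the collagen-specific chaperone HSP47, had 277 and 286 TPM in RD and 217 and 234 TPM in JR1. P4HB, a subunit of prolyl 4-hydroxylase, was at 236 and 195 TPM in RD and at 207 and 175 TPM in JR1. The prolyl isomerase PPIB was at 379 and 321 TPM in RD and at 392 and 314 TPM in JR1, and the chaperone HSP90B1 went in RD from 270.4 to 192 TPM and in JR1 from 247 to 148 TPM. Of 12 compared genes of prolyl and lysyl modification P3H4 (-1.06) and CRTAP (-1.18) fell in RD, each short of the limit without the short structural RNA genes, and P3H3 fell in JR1 (-1.23), and none of the 12 compared genes of secretion fell in either line. After removal of short structural RNA genes the medians of the secretion genes were 0.24 in RD and 0.07 in JR1, and those of the chaperones 0.16 and -0.10. In the folding group FKBP14 fell in JR1 (-1.20), though just short of the limit without the short structural RNA genes, and the collagen chaperone FKBP10 fell in both lines, at 108 and 37.4 TPM in RD (-1.51) and at 112 and 36.3 TPM in JR1 (-1.60).

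Of 5 compared cross-linking enzymes 3 fell in RD and 4 in JR1, where 7.37% and 9.05% of all compared genes did. Their median change was -1.0 and -1.09 (-0.60 and -0.89 without the short structural RNA genes). On that other scale only LOXL4 fell in RD (-1.50) and only LOXL2 in JR1 (-1.25), where 3.45% and 7.48% of all genes fell. LOXL2, a lysyl oxidase, fell in RD from 76.1 to 31.2 TPM and in JR1 from 100.6 to 35.1 TPM. LOXL3 fell from 45.1 to 22.04 TPM and from 38.7 to 17.7 TPM, and LOXL4 from 12.9 to 3.21 TPM and from 13.7 to 5.91 TPM. LOXL1 fell in JR1 (-1.13). LOX itself was at 11.3 and 14.7 TPM in RD and at 55.6 and 35.2 TPM in JR1. Among propeptide processing genes PCOLCE, which enhances the trimming of procollagen, fell in RD from 6.0 to 2.28 TPM and in JR1 from 17.1 to 2.45 TPM. On the scale without short structural RNA genes PCOLCE kept its fall in JR1 (-2.41) and had -0.89 in RD. The protease TLL2 fell in RD from 9.54 to 2.90 TPM and in JR1 from 25.3 to 4.0 TPM. Of 14 compared matrix proteins that bind collagen 4 fell in RD (SPARC, HSPG2, BGN and NID1) and 5 in JR1 (SPARC, HSPG2, FN1, FBN1 and FBN2). Of all compared genes 7.37% fell in RD and 9.05% in JR1. Without the short structural RNA genes BGN alone fell in RD (-1.11), and HSPG2 (-1.20) and FN1 (-1.08) fell in JR1, against 3.45% and 7.48% of all genes. SPARC, a collagen-binding glycoprotein, fell in RD from 266 to 119 TPM and in JR1 from 323 to 157 TPM. HSPG2, the perlecan of basement membranes, fell in RD from 12.5 to 5.24 TPM and in JR1 from 24.7 to 8.78 TPM. TNC had 147 and 112 TPM in RD and 601 and 361 TPM in JR1.

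Some genes of collagen receptors and uptake, and of TGF-β signaling, the best known inducer of collagen genes, also fell. Of 5 compared genes of receptors and uptake 3 fell in RD and 1 in JR1, where 7.37% and 9.05% of all compared genes did. Without the short structural RNA genes 2 of 7 fell in RD and 3 in JR1, where 3.45% and 7.48% of all genes did. DDR1 (0.30 in RD and 0.12 in JR1) and DDR2 (-0.58 and -0.80) stayed short of the limit. MRC2, an uptake receptor for collagen, fell in RD from 30.6 to 5.47 TPM and in JR1 from 40.8 to 8.76 TPM, changes of -2.29 and -2.10. As deposited, MRC2 had the most negative change in RD among the 78 compared genes. Without the short structural RNA genes LTBP2 (-2.28) was lower in RD than MRC2 (-2.00). The collagen-binding integrin genes ITGA1 (-1.55) and ITGB1 (-1.13, but -0.73 without the short structural RNA genes) fell in RD as well. Of the 15 TGF-β genes 5 fell in RD and 6 in JR1, where 7.37% and 9.05% of all compared genes did. Their medians were -0.85 and -0.72, against -0.27 and -0.21 for all genes. Those beyond the limit in 1 line alone were SMAD7 in RD and TGFB1 and CCN2 in JR1. Without the short structural RNA genes 3 fell in RD and 5 in JR1, where 3.45% and 7.48% of all genes did. The medians were then -0.51 and -0.53, against 0.12 and 0.01 for all genes. SMAD7 (-0.90) and TGFBR1 (-0.74) in RD and TGFB1 (-0.80) in JR1 were short of the limit on that scale. The receptor TGFBR1 fell from 49.5 to 21.97 TPM and from 64.6 to 19.2 TPM, and SKIL, a feedback repressor, from 16.5 to 5.34 TPM and from 14.6 to 3.36 TPM. LTBP2, which binds microfibrils, fell in RD from 8.04 to 0.99 TPM and in JR1 from 24.2 to 2.06 TPM. As deposited 3 of the 15 were above 0 in each line, all short of the limit. They were TGFB3, at 8.52 and 12.8 TPM in RD and 20.6 and 29.4 TPM in JR1, TGFB2 (0.29 and 0.59) and TGFBR2 (0.09 and 0.10).

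**Figure D5:**
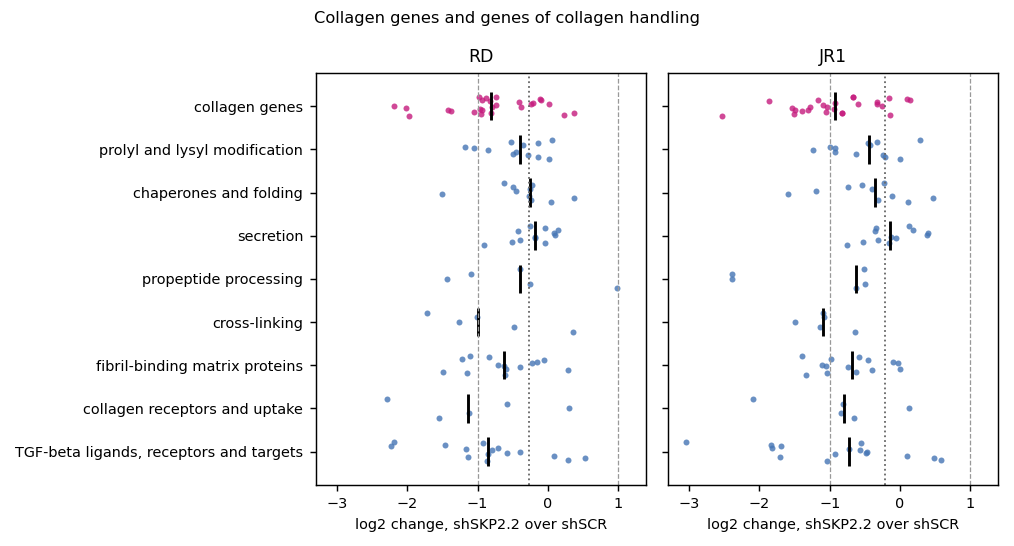
Change of each compared gene (1 point per gene) in RD (left) and JR1 (right) for the collagen genes and the 8 lists of collagen handling, with the list median as a black bar, the median of all compared genes as a dotted line and dashed lines at the 2-fold limits. The medians of the cross-linking genes lie at -1.0 and -1.09, and those of the secretion genes at -0.18 and -0.14.

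Summed fibroblast markers went in RD from 94.7 to 47.6 TPM and in JR1 from 202 to 86.3 TPM, over 12 genes of which 4 are also in the lists above. By comparison, the summed collagen genes with shSKP2.2 were at 86% of shSCR in RD and 46.8% in JR1, or 115% and 56.2% without the short structural RNA genes. Most of the marker sum came from THY1 and S100A4, which many cell types express. THY1 had 34.0 and 11.4 TPM in RD and 66.5 and 12.5 TPM in JR1, and S100A4 had 23.6 and 8.80 TPM in RD and 107 and 59.8 TPM in JR1. POSTN (18.7 and 15.8 TPM in RD) did not pass the limit, and the 6 compared markers had a median of -0.45 in RD, or -0.15 without the short structural RNA genes. Of the 12, 4 were under 0.1 TPM in every library, and the part of this list in the collagen values was not tested. The 9 entries for antisense, divergent or pseudogene relatives of collagen genes were low, the highest value being 1.51 TPM for COL18A1-AS2 in JR1 shSCR, against 0.12 TPM in JR1 shSKP2.2 and 0.55 and 0.13 TPM in RD.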

How the data were processed

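RNA of both lines under both hairpins was measured in 4 libraries, 1 per group. The authors selected poly-A RNA, made directional libraries (the strand setting of the counting is not given in the sources used here), aligned reads to GRCh38 with STAR 2.7.9a and estimated TPM with RSEM 1.3.2. The deposited TPM have 2 decimals, sum to 1000000 and keep no read counts. Samples were grouped by their titles. Here the TPM were used as deposited. Changes were log2 ratios with 1 TPM added, and genes averaging 1 TPM or more were compared, with a limit of 2-fold. Within a line no test was possible, and a fit across both lines with the line as a block, which assumes the same change in each, was not run. Collagen genes averaging 10 TPM or more, or beyond the limit in a line or between the shSCR libraries, are named with all values. Pathway genes are named if beyond the limit in both lines or with a mean of at least 200 TPM. 1 such gene is not reported here. LOX, TGFB3, COL13A1, THY1 and S100A4 were named after their values were seen, as were other genes outside this rule. The members and lists were chosen with earlier results of these data known. Alternatives were 0.1 TPM added, centring on the median of all genes, removal of 3039 short structural RNA genes, a minimum mean of 5 TPM, no minimum and a limit of 1.5-fold. Calls were tested on simulated data. Exons came from GENCODE release 44, whereas the tables carry RefSeq accessions, with the same build. Python 3.11.15, numpy 2.4.6, pandas 2.3.3 and matplotlib 3.10.9 were used.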

Additional observations from a re-analysis of the deposited data

Results flagged for a closer look

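COL3A1 is listed because its change had opposite signs in the 2 lines, 0.37 (RD) and -0.83 (JR1), which lie 1.2 apart on the log2 scale. The signs stayed opposite relative to the median of all genes (0.64 and -0.61) and after removal of short structural RNA genes (0.79 and -0.56). The difference was not tested, since there is 1 library per group.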

How the results depend on the processing

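With 0.1 TPM added, 10 collagen genes fell and 1 rose in RD (10.9% and 2.16% of all genes). With a limit of 1.5-fold, 17 fell in RD and 19 in JR1 (23.2% and 23.4% of all genes), and 13 were lower in RD shSCR than in JR1 shSCR (7.02%). Without short structural RNA genes 1 rose in JR1 (4.9% of all genes). On that scale 13 were lower in RD shSCR, which centring put at 12 (6.99% and 5.06% of all genes). A minimum mean of 5 TPM left 1 gene higher in RD shSCR (6.49% of all genes). Without a minimum the median in JR1 was -0.33 over 44 genes, since it then included the genes with hardly any transcript. Without COL3A1 the summed TPM in RD went to 0.428 of shSCR in place of 0.860. The other 45 of 56 alternative values moved by at most 1.5 times, medians being read as fold changes. Among them were 8 falls in JR1 both when centred and without short structural RNA genes (5.47% and 7.48% of all genes). Others were 3 genes higher in RD shSCR with no minimum and with a limit of 1.5-fold (3.5% and 20.4% of all genes). The RD median with no minimum, -0.23, was also among them. With genes at 1 TPM or more in both libraries of a line, an alternative chosen after seeing the data, 5 fell in RD and 12 in JR1 (7.18% and 8.59% of all genes). Of 132 alternative changes of the 22 named collagen genes, 4 moved by more than 1.5-fold, all with 0.1 TPM added and for genes below 3 TPM in that line, and none beyond the limit changed sign. Within a line no paired analysis was possible because each group had 1 library, and a fit with the lines as pairs was not run. Depth is unknown, so counting error cannot be given.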

Other observations

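SOX9, known as an activator of cartilage collagen genes, had 7.74 and 1.69 TPM in RD shSCR and shSKP2.2 and 10.1 and 2.87 TPM in JR1. COL2A1 and COL9A2 fell in JR1 but were short of the limit in RD (-0.95 and -0.74). COL11A1 had -0.24 in RD and -0.60 in JR1, and COL11A2 had 0.01 and -0.33. ACAN, a defining cartilage gene, had at most 0.02 TPM in any library. SOX9 was on a marker list written with earlier results known, and the part of SOX9 in the collagen values was not tested.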
